A study of Bos grunniens with 12 samples.

Results

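The retinoic acid genes described here are the enzymes that make and break down retinoic acid, its nuclear receptors and the retinol uptake receptor: ALDH1A1, ALDH1A2, CYP26A1, CYP26B1, RARA, RARB, RARG, RXRA, RXRB and STRA6. Members were chosen by symbol alone, as every gene of the deposited expression table that carries 1 of these 10 symbols. The rule found 10 genes among the 20953 of the table, for 9 of the 10 symbols. ALDH1A1 has no gene under its symbol in the table and is not analysed here, and RARG stands on 2 identifiers. Of the 10 genes, 8 had a mean of at least 0.5 FPKM (fragments mapped to a gene, divided by its transcript length and by the size of the library) over the 6 input libraries and were tested, and 2 were below it.

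Retinoic acid is made from vitamin A. Retinol enters cells partly through the membrane receptor STRA6, is oxidised to retinal, and retinal is oxidised to retinoic acid by the ALDH1A enzymes, while the CYP26 enzymes break retinoic acid down. In the nucleus, a retinoic acid receptor (RARA, RARB or RARG) pairs with a retinoid X receptor (RXRA or RXRB) on DNA and switches target genes on when the ligand is bound. In the mammalian testis retinoic acid is known for starting the differentiation of spermatogonia and their entry into meiosis, CYP26B1 for keeping germ cells of the fetal testis from it, and RARA for its role in Sertoli cells, the somatic cells that nurse the germ cells.

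Testes of 3 yaks of 1.5 years and 3 yaks of 5 years were sequenced, each as a library immunoprecipitated with an antibody against N6-methyladenosine (m6A) and as an input library of the same fragmented poly(A) mRNA. The animals were healthy and received no treatment that the labels name, but the younger testes came from castration and the older ones from animals that the labels call slaughtered and the methods euthanized, so age and the way of collection cannot be told apart. Groups were taken from the age in the sample titles, which the growth protocol calls before sexual maturity at 1.5 years and after it at 5 years. The developmental stage field gives the opposite stage for every sample, and exchanging the ages would turn every direction below.

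Transcripts of late germ cells were abundant in the libraries of both ages. TNP1, which packs the DNA of elongating spermatids, stood at 883, 852 and 879 FPKM in the 1.5-year libraries and at 201, 641 and 550 FPKM in the 5-year libraries. The 4 elongating spermatid markers with a gene in the table, of 8 listed, were all lower at 5 years at an unadjusted p under 0.05 by limma. Of all genes tested, 10.9% were lower by this rule. The summed level of the 4 ranged from 1154 to 1195 FPKM at 1.5 years and from 263 to 849 FPKM at 5 years. None of these 4 was at 0 in every library. By these 4 markers, the libraries labelled 1.5 years had higher FPKM of late spermatid transcripts than those labelled 5 years. This goes against the stage that the growth protocol gives them. The sums of the round spermatid markers overlapped between the ages. The study's stained sections showed no germ cells past primary spermatocytes at 1.5 years, and sperm cells at 5 years. Those sections were not analysed here, and the conflict was not resolved. Replicate 1 of the 5-year group stood apart, with correlations of log2 FPKM of 0.817 to 0.837 with the 1.5-year libraries, while replicate 2 had 0.942 to 0.947 and replicate 3 had 0.912 to 0.917. The FPKM of a library summed to between 116187 and 139921. Relative depth, estimated from the steps between low values, lay between 0.993 and 1.10 of that of replicate 1 at 1.5 years. The estimate was sought only in a narrow range around 1, so it cannot show whether depth differed by more. How many fragments stand behind an FPKM value is unknown, so no interval for counting error is given.

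ALDH1A2 was by far the most abundant of the genes at both ages, followed by a middle group of CYP26B1, RXRB, RARA, RXRA and RARB, with RARG and STRA6 near 1 FPKM and CYP26A1 close to 0. As a mean of 3 libraries, ALDH1A2 stood at 50.3 FPKM ± 4.42 (SD, n = 3) at 1.5 years and at 44.3 FPKM ± 7.58 (SD, n = 3) at 5 years. Its mean over all 6 libraries was above that of 96.5% of the genes tested, against 71.0% for RXRB, 70.3% for CYP26B1, 65.2% for RARA, 61.2% for RXRA, 47.7% for RARB, 15.1% for RARG and 12.0% for STRA6. In the 1.5-year libraries the order of levels was ALDH1A2, RXRB, CYP26B1, RARA, RXRA, RARB, STRA6, RARG and CYP26A1. The ranges of the libraries of RXRB and CYP26B1, of CYP26B1 and RARA, of RXRA and RARB, and of STRA6 and RARG overlapped, so these neighbours could not be ordered. In the 5-year libraries CYP26B1 stood above RXRB and RARG above STRA6, again with overlapping ranges, and RXRB, RARA and RXRA overlapped in turn.

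**Figure D1:**
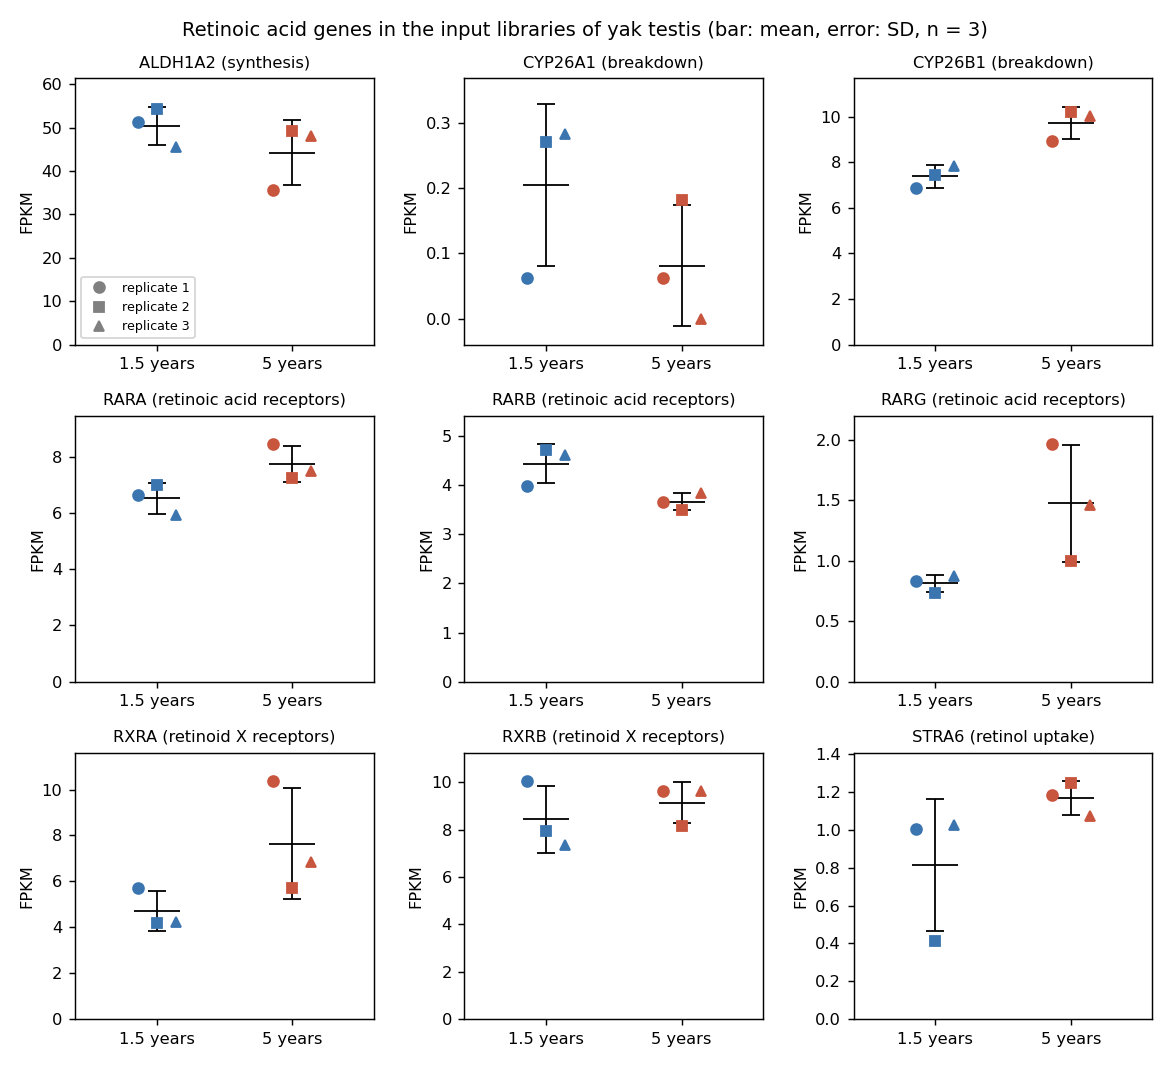
FPKM of the 9 retinoic acid genes with a value above 0, with 1 panel per gene, age on the x axis and FPKM on the y axis. Points are the 6 input libraries, the wide bar is the mean and the error bar is the SD of 3 libraries. The 3 libraries of 5 years lie above all 3 of 1.5 years for CYP26B1, RARA, RARG, RXRA and STRA6 and below them for RARB, while those of ALDH1A2, CYP26A1 and RXRB overlap.

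The plot of FPKM by library gives every value behind the tests that follow. Among the 8 genes tested with limma, 3 were higher at 5 years at an unadjusted p under 0.05 (CYP26B1, RARG and RXRA) and 0 were lower. Over all 12437 genes tested, 14.2% were higher at 5 years and 10.9% lower by the same rule, 25.1% in all. After Benjamini-Hochberg adjustment over all genes, 0 of the 8 were called, as were 4 of all 12437 genes (0.0322%). In 6 of the 8 genes the libraries of the ages did not overlap, with 5 higher and 1 lower at 5 years, against 19.8% and 13.9% of all genes tested (33.7% in either direction). The median log2 fold change of the 8 genes was 0.32, beside 0.04 over all genes tested. The count of 3 at an unadjusted p became 0 without replicate 2 of 1.5 years or without replicate 3 of 5 years, and 1 without replicate 1 or 3 of 1.5 years or replicate 1 of 5 years. In whole tissue, fewer cells of a type and less RNA per cell cannot be told apart.

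The enzyme of retinoic acid synthesis that was measured, ALDH1A2 (ENSBGRG00000011324), oxidises retinal to retinoic acid. Its level was 51.3, 54.2 and 45.5 FPKM in the 1.5-year libraries and 35.5, 49.3 and 48.0 FPKM in the 5-year libraries. The ages overlapped, and the low value was that of replicate 1 of the 5-year group, the library with the fewest late spermatid transcripts. The log2 fold change of 5 years over 1.5 years was −0.20 ± 0.18 (SE), with an unadjusted p = 0.312 and an adjusted p = 0.492 by limma. Its sign turned under quantile normalization, at 0.055, and the value was −0.05 without replicate 1 of 5 years. The 95% interval of the difference ran from −0.62 to 0.23 on the log2 scale, which leaves room for a change in either direction.

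A second enzyme of the same family, ALDH1A3 (ENSBGRG00000004521), stood far below ALDH1A2. Its FPKM was 1.11, 1.11 and 1.76 at 1.5 years and 4.08, 1.53 and 2.27 at 5 years, with overlap between the ages. The log2 fold change was 0.86 ± 0.37 (SE), with an unadjusted p = 0.0517 and an adjusted p = 0.201 by limma.

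Of the enzymes that break retinoic acid down, CYP26B1 (ENSBGRG00000014376) accounted for nearly all of the measured CYP26A1 and CYP26B1 transcript level, 97.4% ± 1.50 (SD, n = 3) at 1.5 years and 99.2% ± 0.879 (SD, n = 3) at 5 years. CYP26B1 stood at 6.87, 7.42 and 7.84 FPKM at 1.5 years and at 8.94, 10.2 and 10.04 FPKM at 5 years. All 3 older libraries were above all 3 younger ones. The means differed by 1.32-fold and the log2 fold change was 0.39 ± 0.14 (SE), with an unadjusted p = 0.0228 and an adjusted p = 0.165 by limma. Of the 8 genes it had the lowest unadjusted p, and it is the 1 gene of the 3 that passed whose replicate 1 at 5 years was the lowest of its group and not the highest. The unadjusted p rose to 0.0908 without replicate 1 of 1.5 years, to 0.0638 without replicate 2 of 1.5 years and to 0.0724 without replicate 3 of 5 years, at log2 fold changes of 0.34, 0.40 and 0.37. With the replicate number as a block it was 0.0642.

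CYP26A1 (ENSBGRG00000021895) was barely measured, at 0.0624, 0.270 and 0.282 FPKM at 1.5 years and 0.0625 and 0.181 FPKM in replicates 1 and 2 of 5 years, and it was listed at 0 in replicate 3 of 5 years. It was below the level set for testing, and the ages overlapped. The related CYP26C1 was listed at 0 in 3 of the 6 libraries and reached 0.123 FPKM at most.

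**Figure D2:**
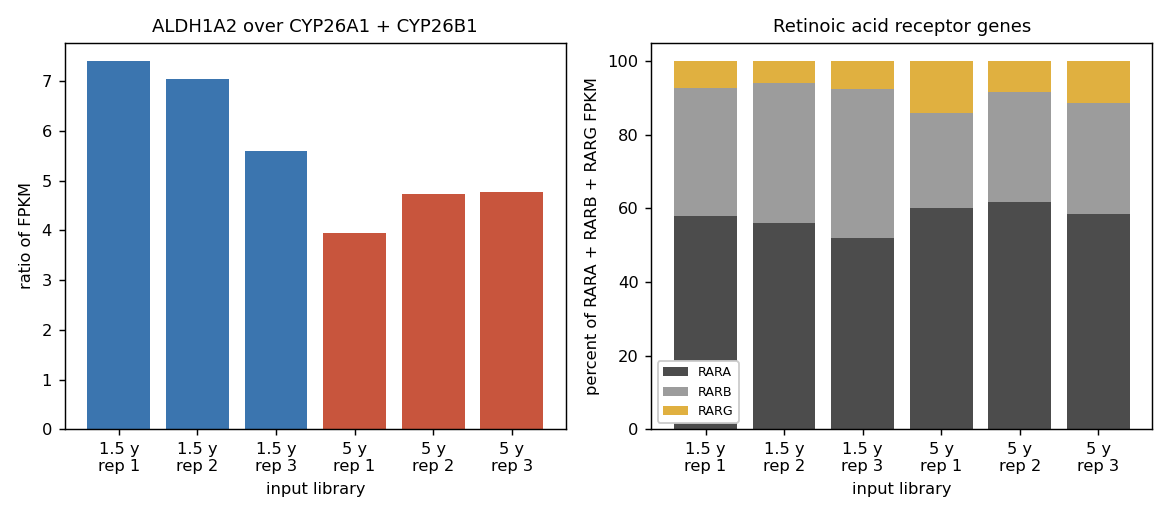
The left panel shows, for each input library on the x axis, the ratio of ALDH1A2 FPKM to the summed FPKM of CYP26A1 and CYP26B1. The right panel shows the percent of the summed RARA, RARB and RARG FPKM that each receptor held. The ratio is between 5.60 and 7.41 in the 1.5-year libraries and between 3.95 and 4.77 in the 5-year libraries, and the RARB share is smaller in every 5-year library than in any 1.5-year library.

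The FPKM of ALDH1A2 exceeded that of the breakdown enzymes at both ages, by less at 5 years. The ratio of ALDH1A2 to the sum of CYP26A1 and CYP26B1 was 7.41, 7.04 and 5.60 in the 1.5-year libraries and 3.95, 4.74 and 4.77 in the 5-year libraries. The ages did not overlap in this ratio, which was lower in each older library, and the log2 ratio of its group means was −0.57. With ALDH1A3 added to the synthesis side the log2 ratio was −0.52. The synthesis side leaves out ALDH1A1, which has no gene under its symbol, and ALDH1B1, a relative that can also oxidise retinal. ALDH1B1 (ENSBGRG00000001593) had means of 10.4 FPKM at 1.5 years and 18.9 FPKM at 5 years. It stood at 9.78 FPKM in replicate 3 of 1.5 years and at 24.3 FPKM in replicate 1 of 5 years, the libraries with the lowest ratio of each age. A ratio that includes it was not computed. The gap between the ages therefore holds only for the enzymes in the ratio and need not remain with ALDH1B1 added. A ratio of transcripts is a description of the libraries and does not measure retinoic acid, and it was given no test since its genes were chosen together.

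The retinoic acid receptors bind the ligand itself. RARA (ENSBGRG00000019399), the receptor best known from Sertoli cells, had 6.65, 6.97 and 5.91 FPKM at 1.5 years and 8.44, 7.24 and 7.48 FPKM at 5 years. Its older libraries all lay above the younger ones, by 1.19-fold in the means, with a log2 fold change of 0.24 ± 0.14 (SE), an unadjusted p = 0.131 and an adjusted p = 0.306 by limma. This gap was not past the spread between replicates in the test.

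RARB (ENSBGRG00000010314), whose own gene is a textbook target of retinoic acid, was the 1 gene with lower values in every 5-year library. It stood at 3.98, 4.72 and 4.60 FPKM at 1.5 years and at 3.66, 3.49 and 3.83 FPKM at 5 years. The log2 fold change was −0.27 ± 0.14 (SE), with an unadjusted p = 0.103 and an adjusted p = 0.271 by limma. Only under median-of-ratios scaling of the libraries, of the alternatives run, did the unadjusted p pass, at 0.0490 with a log2 fold change of −0.33.

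RARG (ENSBGRG00000002743), the receptor usually placed in differentiating spermatogonia, was the least abundant of the 3 and had the largest fold difference among the genes tested. Its level was 0.829, 0.737 and 0.873 FPKM at 1.5 years and 1.97, 0.996 and 1.46 FPKM at 5 years. The older libraries were all higher but spread widely, with replicate 2 close to the younger animals and replicate 1 the highest. The means differed by 1.81-fold, and the log2 fold change was 0.74 ± 0.28 (SE) on the log2(FPKM + 0.1) scale, with an unadjusted p = 0.0334 and an adjusted p = 0.176 by limma. Without replicate 2 of 5 years, the library nearest to the younger group, the log2 fold change was 0.98 with an adjusted p = 0.0402, and 2526 of all genes were called. Without replicate 1 of 5 years it was 0.52 with an unadjusted p = 0.0987. The unadjusted p was also above the threshold without replicates 1, 2 and 3 of 1.5 years, at 0.0699, 0.0905 and 0.0610, and without replicate 3 of 5 years, at 0.0854. Under quantile normalization it was 0.0516, with a log2 fold change of 0.62. The other identifier with this symbol (ENSBGRG00000002856) was listed at 0 in all 6 libraries.

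The 3 receptors took different shares of their summed level at the ages. RARB held 34.8%, 38.0% and 40.4% of the summed RARA, RARB and RARG FPKM in the 1.5-year libraries and 26.0%, 29.8% and 30.0% in the 5-year libraries. RARG held 7.24%, 5.93% and 7.66% at 1.5 years and 14.0%, 8.50% and 11.5% at 5 years. RARA held the most in every library, with 51.9% to 58.0% at 1.5 years and 58.6% to 61.7% at 5 years. For each of the 3 receptors the shares of the ages did not overlap, though for RARA only narrowly, at 58.0% against 58.6%. The 3 are parts of the same sum, so they are not separate results. Among all genes tested, 33.7% had FPKM values that did not overlap between the ages. Their sum was 11.8 FPKM ± 0.581 (SD, n = 3) at 1.5 years and 12.9 FPKM ± 1.17 (SD, n = 3) at 5 years.

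The retinoid X receptors are the partners of the retinoic acid receptors and of several other nuclear receptors. RXRA (ENSBGRG00000005191) stood at 5.70, 4.19 and 4.25 FPKM at 1.5 years and at 10.4, 5.72 and 6.83 FPKM at 5 years. The ages did not overlap, but replicate 2 of 5 years at 5.72 FPKM lay next to replicate 1 of 1.5 years at 5.70 FPKM. The means differed by 1.62-fold, and the log2 fold change was 0.66 ± 0.25 (SE), with an unadjusted p = 0.0327 and an adjusted p = 0.174 by limma. Without replicate 1 of 5 years the log2 fold change was 0.42 with an unadjusted p = 0.0656. The unadjusted p was 0.0980 and 0.0963 without replicates 2 and 3 of 1.5 years, and 0.0545 without replicate 3 of 5 years.

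RXRB (ENSBGRG00000019018) had 10.04, 7.93 and 7.34 FPKM at 1.5 years and 9.62, 8.13 and 9.63 FPKM at 5 years, with overlap between the ages. Its log2 fold change was 0.12 ± 0.17 (SE), with a 95% interval from −0.28 to 0.52, an unadjusted p = 0.496 and an adjusted p = 0.656 by limma. RXRA made up 36.2%, 34.6% and 36.7% of the summed RXRA and RXRB FPKM at 1.5 years and 51.9%, 41.3% and 41.5% at 5 years, so the share was higher in each older library. The related RXRG was listed at 0 in 1 library and reached 0.226 FPKM at most.

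STRA6 (ENSBGRG00000004535), the membrane receptor that takes up retinol from its carrier in blood, was low in all libraries. Its level was 1.00, 0.413 and 1.03 FPKM at 1.5 years and 1.19, 1.25 and 1.07 FPKM at 5 years. The older libraries lay just above the younger ones, and replicate 2 of 1.5 years was low on its own. The log2 fold change was 0.56 ± 0.35 (SE), with an unadjusted p = 0.155 and an adjusted p = 0.333 by limma, and it was 0.19 without replicate 2 of 1.5 years.

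**Figure D3:**
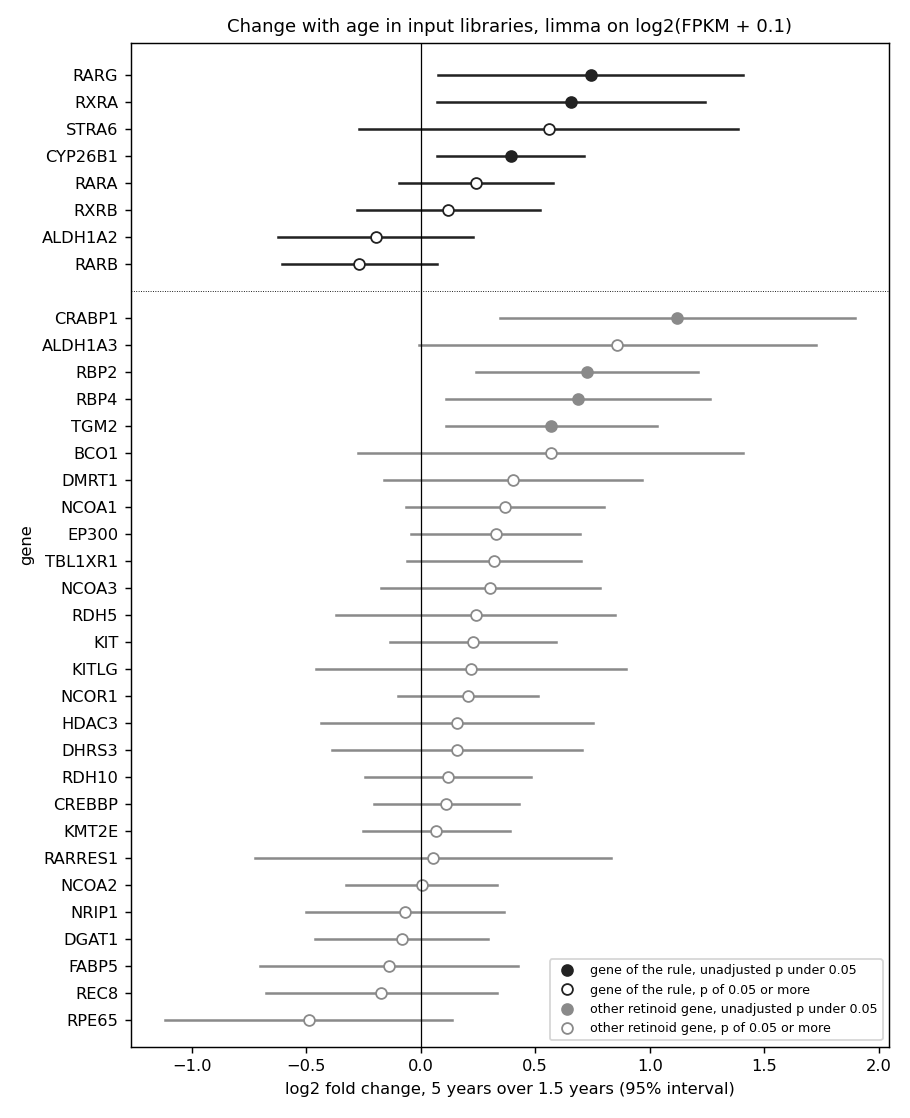
Log2 fold change of 5 years over 1.5 years (x axis) with its 95% interval for the 8 retinoic acid genes tested (black, top) and for 27 of the 28 other retinoid genes tested (grey, bottom). Filled points have an unadjusted p under 0.05. The filled point of CRABP1 is of a gene that reached the level set for testing only through its 5-year values. RARG and RXRA are at 0.74 and 0.66, RARB is at −0.27, and the filled points are all to the right of 0.

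The plot of fold changes sets these genes beside the wider retinoid pathway. Of 59 further symbols of the pathway, 41 have a gene in the table and 28 were tested. Of these 28, 5 were higher at 5 years at an unadjusted p under 0.05 and 0 lower, beside 14.2% and 10.9% of all genes tested, and 0 were called after adjustment by limma. The libraries of the ages did not overlap in 10 of the 28, all of them higher at 5 years, beside 19.8% of all genes tested that were higher without overlap and 33.7% in either direction. The median log2 fold change was 0.22. CRABP1 is in these counts and in this median, though it reached the level set for testing only through its 5-year values. The count of 5 was 11 of 27 without replicate 2 of 5 years, where 40.1% of all genes tested passed in either direction in place of 25.1%. It was 3 without replicate 1 of 1.5 years or replicate 1 or 3 of 5 years, where 14.6%, 18.5% and 16.1% of all genes passed.

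Of the 4 carriers of retinoids tested, 3 were among these 5, beside 14.2% of all genes tested that were higher by the same rule. CRABP1 was 1 of the 3 and reached the level set for testing only through its 5-year values. With a mean of at least 1 FPKM required, 4 of the 27 other retinoid genes then tested passed. RBP2, a carrier of retinol inside cells, was at 5.88, 5.66 and 5.37 FPKM at 1.5 years and 12.4, 7.34 and 9.02 FPKM at 5 years, a log2 fold change of 0.73 with an unadjusted p = 0.00939 and an adjusted p = 0.154 by limma. RBP4, which carries retinol in blood and is the ligand of STRA6, was at 2.84, 3.43 and 4.35 FPKM at 1.5 years and 7.73, 4.97 and 4.77 FPKM at 5 years, with an unadjusted p = 0.0254 and an adjusted p = 0.168. CRABP1, which binds retinoic acid in the cytoplasm, was at 0.253, 0.301 and 0.346 FPKM at 1.5 years and 0.958, 0.744 and 0.623 FPKM at 5 years, and since its 1.5-year mean lay below the level set for testing its p is not given. In each of the 3 the older libraries lay above all younger ones, as they did in CRABP2, its close relative, which was below the level set for testing. CRABP2 was at 0.0219 and 0.0397 FPKM in replicates 1 and 3 of 1.5 years and listed at 0 in replicate 2, and it was at 0.700, 0.512 and 0.956 FPKM in the 5-year libraries. FABP5, which also carries retinoic acid, was the carrier with a value below 0, at a log2 fold change of −0.14 and an unadjusted p = 0.579.

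Among receptor cofactors, 11 were tested, of which 1 was higher at an unadjusted p under 0.05, beside 14.2% of all genes. In 6 of them the libraries of the ages did not overlap, all higher at 5 years, beside 19.8% of all genes. Among genes of the response to retinoic acid and of meiotic entry, 6 were tested and 1 was higher by this rule, again beside 14.2% of all genes. Such a count is near that share. TGM2, a transglutaminase induced by retinoic acid in many cells, was at 2.93, 3.64 and 2.68 FPKM at 1.5 years and 4.45, 3.89 and 5.56 FPKM at 5 years, a log2 fold change of 0.57 with an unadjusted p = 0.0217 and an adjusted p = 0.164 by limma. STRA8, the gene that retinoic acid switches on at meiotic entry, has no gene under its symbol in the table. No gene passed at an unadjusted p among the 3 tested for retinol storage and precursors or the 4 tested dehydrogenases and reductases.

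Differential m6A peaks are regions whose m6A signal was called different between the ages in the deposited comparison. They were recorded on 2 of the 10 genes, RARA and RARB, with 1 peak each. Of all genes of the expression data, 5.63% carried a differential peak, and 9.29% of the genes that passed the level set for testing did, against which the 2 of 8 is a small count to be read as a description. Both peaks were annotated to a 3′ untranslated region, as were 257 of all 1438 differential peaks (17.9%). In LU_Bosgru_v3.0 coordinates the RARB peak lay on chromosome 28 from 13141411 to 13141560, 150 bp wide, in a gene on the plus strand from 12935107 to 13142254. Its distal edge was 694 bp before the annotated 3′ end. The RARA peak lay on chromosome 19 from 25720725 to 25720924, 200 bp wide, in a gene on the minus strand from 25719727 to 25736293, with its distal edge 998 bp before the 3′ end.

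**Figure D4:**
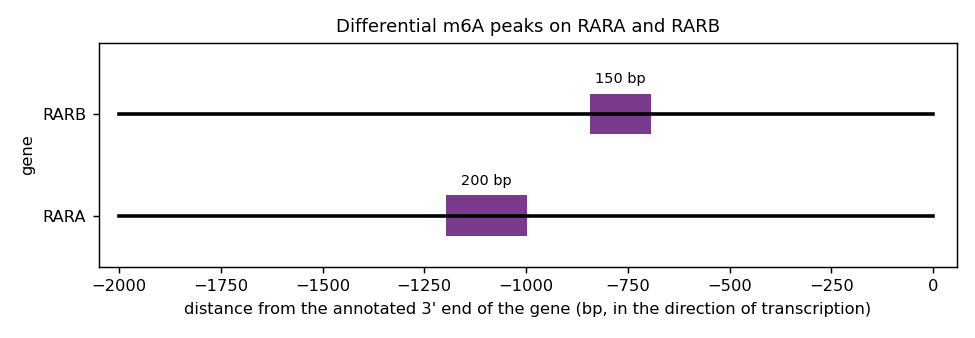
Position of the differential m6A peaks of RARA and RARB (boxes) on the last stretch of each gene (line), in bp from the annotated 3′ end along the direction of transcription. The peaks are 200 bp and 150 bp wide and end 998 bp and 694 bp before the 3′ end.

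The map of the peaks shows both on the terminal part of the gene. Both were narrow, with 22.1% of all differential peaks narrower than that of RARA and 6.68% narrower than that of RARB. The differential table gives neither a direction nor a size for a peak, so whether m6A at these sites was higher at 1.5 or at 5 years was not analysed here. In the input libraries neither gene passed the test, with values of RARA higher and of RARB lower at 5 years as given above. A differential peak also lay on 4 genes of the wider pathway, each annotated to an exon: ALDH1A3 to exon 7 of 13, TGM2 to exon 7 of 11, KIT to exon 6 of 22 and CREBBP to exon 33 of 33. The peak of ALDH1A3 was 4275 bp wide on the genome, introns included, and those of TGM2, KIT and CREBBP were 149, 150 and 250 bp wide.

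**Figure D5:**
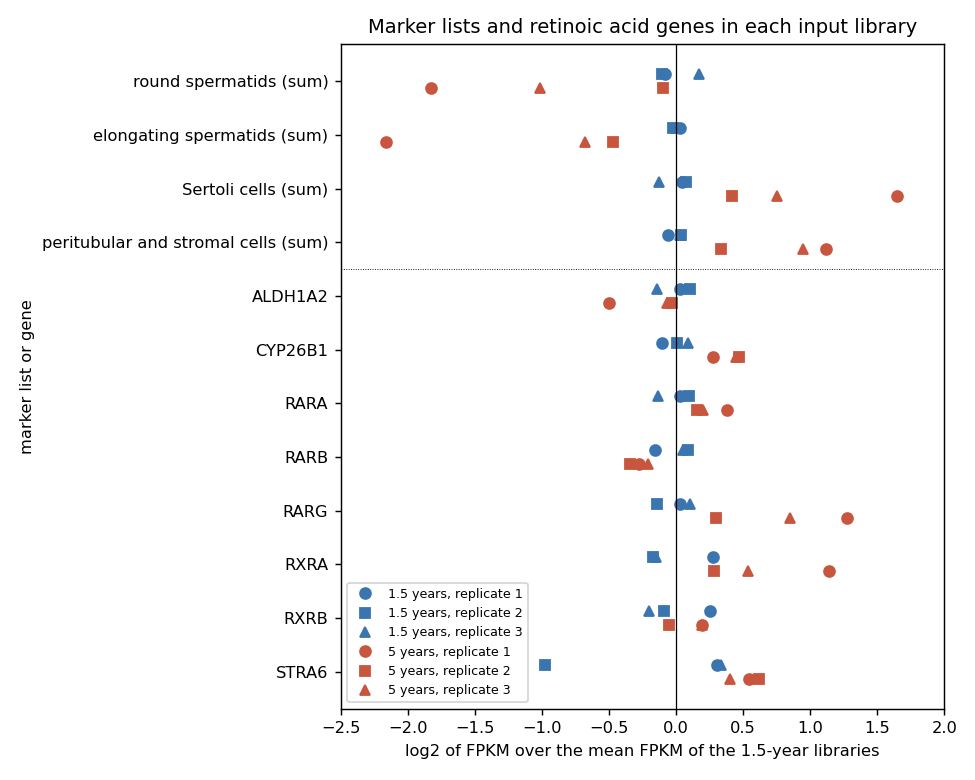
Summed FPKM of 4 marker lists (above the dotted line) and FPKM of the 8 retinoic acid genes tested (below it), each as the log2 of its value over the mean of the 1.5-year libraries on the x axis. Each point is 1 input library, with colour for age and shape for replicate. In the 5-year group replicate 1 is the farthest from 0 and replicate 2 the nearest for the sums of all 4 lists and for ALDH1A2, RARA, RARG and RXRA.

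Markers of other testis cells moved with age in the same libraries, as the plot of marker lists beside the genes shows. All 7 Sertoli cell markers tested, of 10 listed, were higher at 5 years at an unadjusted p under 0.05 by limma. Of all genes tested, 14.2% were higher and 10.9% lower by this rule, and the counts below stand beside these shares. The summed Sertoli level ranged from 82.7 to 95.3 FPKM at 1.5 years. It was 283, 120 and 153 FPKM at 5 years, of which INHA held 211, 81.2 and 100 FPKM. Of 7 peritubular and stromal markers tested, of 8 listed, 5 were higher, with sums from 22.9 to 24.4 FPKM at 1.5 years and 51.9, 30.2 and 46.0 FPKM at 5 years. Round spermatid markers had 3 tested of 7 listed, with 1 lower, and summed to between 160 and 194 FPKM at 1.5 years and to 48.4, 161 and 84.9 FPKM at 5 years. None of the marker genes with a value in these lists was at 0 in every library. Spermatogonial and spermatocyte markers had 0 of 7 and 0 of 8 past the threshold in either direction, and their sums ranged from 38.4 to 42.1 and from 93.0 to 97.6 FPKM at 1.5 years and from 40.5 to 60.5 and from 78.2 to 96.7 FPKM at 5 years. Of the macrophage markers, 2 of 5 tested were lower, with sums of 22.6 to 25.8 FPKM at 1.5 years and 13.4 to 27.9 FPKM at 5 years. Of the Leydig cell markers, 1 of 2 tested was lower, with sums of 10.1 to 19.1 FPKM and 7.40 to 8.40 FPKM. Endothelial markers had 0 of 4 past the threshold, and no erythroid marker reached the level set for testing.

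In RARA, RARG and RXRA replicate 1 was the highest of the 5-year libraries, replicate 3 next and replicate 2 lowest. The sums of the Sertoli and of the peritubular and stromal markers had the same rank. So did the spermatogonial sum, at 60.5, 40.5 and 42.7 FPKM in replicates 1, 2 and 3, of which UCHL1 held 38.1, 16.9 and 19.2 FPKM. Of the other spermatogonial markers, GFRA1, ZBTB16 and ETV5 had this rank, but FGFR3, NANOS3 and ITGA6 did not. CYP26B1 did not have this rank, since its replicate 1 was the lowest of the older libraries. ALDH1A2 had its lowest value in replicate 1, where the spermatid sums were also the lowest. Only a few orders of 3 libraries exist, so a shared rank is a description. The part of these cell markers in the differences of the retinoic acid genes was not tested.

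For each of the 8 genes the marker gene with the most similar profile of log2(FPKM + 0.1) over the 6 input libraries was taken from 47 marker genes, as a description in which the libraries of both ages are pooled and share the scaling of each library. RARG was most like TAGLN, a smooth muscle gene of peritubular cells, with r = 0.99, and CYP26B1 was most like DCN, a stromal gene, with r = 0.90. RARA was most like WT1 and RXRA and RXRB most like FSHR, both Sertoli cell genes, with r = 0.98, 0.99 and 0.71. ALDH1A2 was most like HMGB4, a spermatid gene, with r = 0.93, RARB most like the macrophage gene CD163, with r = 0.94, and STRA6 most like the meiotic gene SPO11, with r = 0.97. A single marker does not stand for its list here, since CD163 had a log2 fold change of −1.16 but CSF1R and CD14, also macrophage markers, had 0.58 and 0.55, and SPO11 had 0.27 but the spermatocyte markers SYCP2 and PIWIL1 had −0.23 and −0.32. Since the best of 47 genes was taken each time over 6 libraries, no p is given.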

How the data were processed

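FPKM values were deposited by the authors, with 1 column per input library. Per the methods and the processing notes, reads passed through Trimmomatic and, to drop rRNA, SortMeRNA, and the authors then mapped them to LU_Bosgru_v3.0 (Ensembl release 99) by HISAT2 2.0.4, keeping unique alignments. How FPKM was computed is not given in the sources used here. The authors called and compared peaks with MeTDiff and annotated them with ChIPseeker. Their deposited table gives other values, the positions and widths in bp, with no value per sample.

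Input libraries of the ages (3 against 3) entered a limma fit (version 3.58.1, R 4.3.3) of log2(FPKM + 0.1) with trended eBayes. It covered the 12437 genes whose mean reached 0.5 FPKM. Tests were two-sided, with Benjamini-Hochberg adjustment over all genes tested. An exact permutation test of 3 against 3 cannot go below p = 0.1, so none is given. The labels do not link samples across ages. The p-values rest on the spread between animals within the ages, pooled over both ages and moderated by eBayes over all genes tested. Only the main limma fit was checked on simulated data, with noise drawn independently for each gene and library. Tables and plots were made with Python 3.11.15, pandas 2.3.3, numpy 2.4.6 and matplotlib 3.10.9.

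The genes, the pathway and marker lists and the tests were chosen with earlier results of these data known. All genes of the rule are named; other retinoid genes are named at an unadjusted p under 0.05, with a peak, or as relatives of these enzymes and receptors. FABP5, CRABP2 and the genes of the closing observations were named after their values were seen. A single gene that this rule selects is counted but not reported here. Where a symbol had several identifiers, that of the highest mean FPKM was taken. Alternatives covered pseudocounts, filters, scalings, forms of eBayes, a replicate block, summed identifiers and each library left out. No sequences are printed, and values per gene of the immunoprecipitated libraries were not analysed here.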

Additional observations from a re-analysis of the deposited data

How the results depend on the processing

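The direction of CYP26B1, RARA, RARB, RARG, RXRA and RXRB was kept in all 17 alternatives and that of STRA6 in the 16 that could be run for it, with log2 fold changes of 0.33 to 0.52, 0.18 to 0.37, −0.34 to −0.14, 0.43 to 0.98, 0.42 to 0.84, 0.03 to 0.25 and 0.19 to 0.75. ALDH1A2 turned sign under quantile normalization (0.055). No adjusted call was made on the 8 retinoic acid genes in any alternative other than the fit without replicate 2 of 5 years, where RARG passed, so their adjusted calls ranged from 0 to 1 with a library left out. With a library left out, calls at an unadjusted p ranged from 0 to 3 for the retinoic acid genes and from 3 to 11 for the other retinoid genes, the log2 ratio of synthesis to breakdown from −0.69 to −0.49, and adjusted calls over all genes from 0 to 2526. The count over all genes, 4 as reported, was 2 with a pseudocount of 0.01, with a mean of at least 1 FPKM or with identifiers of a symbol summed, 8 with no filter, 9 without the trend in eBayes and 1 with the replicate block.

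Libraries with the same replicate number did not deviate together (r = −0.02, −0.09 and 0.01), and for unlike numbers r ranged from −0.13 to 0.14. Such values cannot settle whether the numbers pair the animals, since a pairing need not leave a shared deviation. With the replicate block 2 retinoic acid genes were called at an unadjusted p in place of 3, CYP26B1 no longer among them, and 4 other retinoid genes in place of 5. Scaling every library to the same FPKM sum moved the median of all genes by 0.12 to 0.17, and genes higher at 5 years were then 69.8% of those with an unadjusted p under 0.05, against 56.6% as reported and 45.3% with median-of-ratios scaling. The causes were not tested. FPKM without fragment counts limits what can be said of CYP26A1, RARG and STRA6, and 3 animals per age limit the rest.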

Other observations

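Further genes beside the retinoic acid pathway showed values of interest, and all were named after their values were seen. ALDH1B1, a mitochondrial relative of the ALDH1A enzymes that can also oxidise retinal, stands on 3 identifiers, of which ENSBGRG00000001593 had 10.8, 10.6 and 9.78 FPKM at 1.5 years and 24.3, 14.7 and 17.6 FPKM at 5 years. All older libraries were higher, by a log2 fold change of 0.82 with an unadjusted p = 0.00439 and an adjusted p = 0.154 by limma, and its level was several times that of ALDH1A3. GREB1L, a gene linked to retinoic acid signalling in development, stood under ENSBGRG00000017126 at 36.5, 27.2 and 39.1 FPKM at 1.5 years and at 6.29, 26.3 and 10.5 FPKM at 5 years. Its log2 fold change was −1.48 with an unadjusted p = 0.0168 and an adjusted p = 0.157, and its lowest 5-year value was in replicate 1, the library with the fewest spermatid transcripts. The second GREB1L identifier, ENSBGRG00000016253, had a log2 fold change of −0.18 with an unadjusted p = 0.519.

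The function annotation in the deposited table does not describe all of these genes. RARB and ALDH1A2 carry exactly the same 7 GO terms as 2392 genes of the table (11.4%), a set headed by RNA-directed DNA polymerase activity, so a term analysis on that annotation would not place them in the retinoid pathway.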
